A study of Mus musculus with 4 samples.

Results

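De novo lipogenesis, the making of fatty acids from acetyl-CoA, was followed in mouse liver through 10 genes: Srebf1, Mlxipl, Fasn, Acaca, Acly, Scd1, Elovl6, Me1, Thrsp and Pnpla3. They were chosen by name, as the genes of the transcription factors SREBP-1 and ChREBP and of lipogenic enzymes and companion proteins, and every probe set annotated to them was taken. The choice was made with earlier results of these data known. All 10 were measured, out of 18193 genes, by 22 of 45037 probe sets (a probe set is the group of short probes that reads 1 transcript region). Acly had 6 probe sets, Elovl6 and Thrsp 3 each, Acaca, Scd1 and Me1 2 each, and Srebf1, Mlxipl, Fasn and Pnpla3 1 each. Where a gene had several, the brightest of them, by its mean over the 4 arrays, stood for it.

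The livers came from C57BL/6 mice of 2 groups, wild type (WT) and Baf60a LKO, in which Baf60a was deleted specifically in the liver. Baf60a, listed as Smarcd1, encodes a part of SWI/SNF, a complex that remodels chromatin. Both groups ate a high-fat diet for 10 weeks from 6 weeks of age and were fasted overnight before the livers were taken, so all values describe fasted, fat-fed animals. Each group had 2 Affymetrix Mouse Genome 430 2.0 arrays, and every array carried a separate pool of RNA. The driver of the deletion, the number and sex of the mice in a pool and the exact alleles of the WT mice are details not given in the sources used here.

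In liver, insulin raises transcription of Srebf1 and the cleavage of its product, and glucose metabolites activate ChREBP, the product of Mlxipl; together they switch on the enzymes that carry citrate to palmitate and oleate. Fasting lowers this programme. The steps run from ATP-citrate lyase (Acly) through acetyl-CoA carboxylase (Acaca) and fatty acid synthase (Fasn), with NADPH from malic enzyme (Me1), to the elongase ELOVL6 and the desaturase SCD1.

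Sequences just before the transcription start are shown for the genes of both factors, for Fasn, and for Thrsp, the member that ranged most widely over the arrays. They are 250 bases long, end at the base before the start, and come from the RefSeq promoter table of GRCm38.p6, where 9 of the 10 members matched (not Scd1) with 13 starts. Capitals mark ATCACC, which opens the classical sterol response element bound by SREBP, the E-box CACGTG, the core of the paired element bound by ChREBP, and ATTGG, the inverted CCAAT box bound by NF-Y, each on either strand. For Srebf1 the start inside the gene is shown, from which SREBP-1c, the main form in liver, is made.
Srebf1 (chr11:60210472-60210721, minus strand): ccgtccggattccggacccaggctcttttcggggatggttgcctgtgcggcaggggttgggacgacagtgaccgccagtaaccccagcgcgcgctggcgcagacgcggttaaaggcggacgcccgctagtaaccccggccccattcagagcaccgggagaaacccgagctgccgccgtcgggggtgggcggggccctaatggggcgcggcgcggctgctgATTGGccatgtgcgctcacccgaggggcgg
Mlxipl (chr5:135089640-135089889, plus strand): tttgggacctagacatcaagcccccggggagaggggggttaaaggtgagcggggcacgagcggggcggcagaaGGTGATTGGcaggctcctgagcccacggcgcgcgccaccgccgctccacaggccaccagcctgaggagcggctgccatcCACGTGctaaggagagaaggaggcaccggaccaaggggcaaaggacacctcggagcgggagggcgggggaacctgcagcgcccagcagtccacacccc
Fasn (chr11:120824548-120824797, minus strand): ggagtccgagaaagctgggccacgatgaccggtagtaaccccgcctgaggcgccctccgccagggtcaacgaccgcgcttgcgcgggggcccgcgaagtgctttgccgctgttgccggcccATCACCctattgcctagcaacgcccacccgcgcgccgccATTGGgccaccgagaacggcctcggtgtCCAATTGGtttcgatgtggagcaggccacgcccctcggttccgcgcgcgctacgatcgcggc
Thrsp (chr7:97417551-97417800, minus strand): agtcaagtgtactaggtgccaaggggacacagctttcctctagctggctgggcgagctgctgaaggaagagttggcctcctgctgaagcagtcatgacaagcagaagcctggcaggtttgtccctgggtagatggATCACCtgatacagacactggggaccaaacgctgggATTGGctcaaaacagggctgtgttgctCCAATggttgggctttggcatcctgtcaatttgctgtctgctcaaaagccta

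ATCACC or its reverse complement lay in 4 of the 13 member windows, those of Mlxipl (both of its starts), Fasn and Thrsp, against 8.48% of 32851 windows of the same length over all genes. The longer form TCACNCCAC was found at 1 member start, the other start of Mlxipl, and in 1.05% of all windows. CACGTG occurred at 1 member start, that of Mlxipl printed above, and in 6.02% of all windows. ATTGG was found in 7 of the 13 member windows and in 33.8% of all windows; in Fasn a pair of matches on opposite strands overlaps, and in Mlxipl a match overlaps ATCACC. These are matches of letters and not measured binding sites.

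The arrays had medians of 4.19 to 4.27, and WT replicate 1 stood apart, correlating with the others at 0.987 to 0.991 over probe sets, against 0.993 to 0.996 for the other pairs. Its quartiles were also closer together, 3.09 and 6.26 against 2.93 to 2.95 and 6.44 to 6.47. The hepatocyte markers Alb, Ttr and Apoa1 read 13.74 to 14.17 on all arrays, as the liver label has it. Of all 7 hepatocyte markers, 4 were higher and 3 lower in Baf60a LKO, and 0 passed. Tat (-0.34) and Pck1 (0.31) had the largest differences among them. Adipocyte markers, which matter since fat also makes lipogenic transcripts, were lower in Baf60a LKO for 6 of 6, with mean levels of 5.73 and 5.60 in WT and 5.23 and 5.25 in Baf60a LKO. The adipocyte hormone genes Adipoq (2.35 to 2.49) and Lep (2.44 to 2.72) were near the level of the bacterial control probe sets on every array, while Fabp4 (7.17 to 7.83) and Car3 (12.15 to 13.53) were bright. Retn (4.85 and 4.18 in WT, 4.14 and 4.09 in Baf60a LKO) and Ucp1 (3.63 and 2.99, against 2.99 and 2.82) were dim. Both were highest in WT replicate 1, and the groups overlapped for Adipoq, Fabp4 and Ucp1. Car3 was the 1 of the 6 that passed, falling by 1.24 on the log2 scale (limma, adjusted p = 0.0321), and it had the largest difference among them. Its level was not far below that of the hepatocyte markers, and whether its transcript came from fat cells or from hepatocytes was not tested. The list mean is therefore not a measure of fat tissue in the pools. Cholangiocyte markers were higher for 5 of 5, with mean levels of 3.65 and 3.76 in WT and 4.07 and 4.30 in Baf60a LKO. Of these, 0 passed, and Epcam had the largest difference, 1.17. Cftr (1.90 to 2.29) was near the bacterial controls. Stellate cell markers were lower for 6 of 6 (median -0.06), endothelial markers for 5 of 6 and lymphocyte markers for 3 of 5. Kupffer cell and macrophage markers were higher for 4 of 6, and 0 passed in any of these lists. The part of these cell types in the differences of the members was not tested. Smarcd1 read 5.62 and 5.88 in the WT pools, against 5.34 and 5.30 in the Baf60a LKO pools, on its brighter probe set. The difference of -0.43 ± 0.14 did not pass (limma over all probe sets, adjusted p = 0.564). Its other probe set was dim, with 2.87 and 2.86 in WT and 2.70 and 2.75 in Baf60a LKO (adjusted p = 0.748 by the same fit). Whether the Smarcd1 probes lie in the deleted part is a point not stated in the sources used here.

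None of the 10 lipogenic genes passed the test between Baf60a LKO and WT, and they lay on both sides of 0, 5 above and 5 below, where 50.1% of all genes were above. On the brightest probe set of each gene, the log2 differences, Baf60a LKO minus WT, were 0.50 for Srebf1, 0.31 for Acly, 0.24 for Mlxipl, 0.20 for Acaca and 0.14 for Fasn. They were -0.42 for Me1, -0.39 for Thrsp, -0.24 for Elovl6, -0.12 for Scd1 and -0.01 for Pnpla3. The signs of Acaca, Scd1 and Pnpla3 turned under at least 1 other setting, so no direction is given for these genes. In tissue RNA, fewer cells of a type and less RNA per cell cannot be told apart. The median of the 10 was 0.07, against 0.00 over all genes. Over the brighter 50% of genes, which held every member but Pnpla3, the median of all genes was 0.08. The median size of a difference, whatever its sign, was 0.24 for the members and 0.14 over all genes. By limma with Benjamini-Hochberg adjustment over all genes, 0 of 10 passed at an adjusted p under 0.05, where 0.484% of all genes passed. The adjusted p-values ran from 0.368 for Me1 to 0.993 for Pnpla3, and 0 of 10 passed under any of the 12 other settings run, a trended and robust limma fit among them. At an unadjusted p under 0.05 there were 2 of 10, Srebf1 and Me1, against 10.2% of all genes. Groups did not overlap, with both Baf60a LKO pools higher, for 4 of 10 members (22.8% of all genes) and, with both lower, for 1 of 10 (19.6% of all genes). Without WT replicate 1, the array that stood apart, the median of the 10 was 0.06, and the differences were 0.68 for Srebf1, 0.27 for Mlxipl, 0.23 for Acly, 0.18 for Acaca and 0.07 for Fasn. The others were then -0.42 for Me1, -0.28 for Elovl6, -0.24 for Thrsp, -0.03 for Scd1 and 0.06 for Pnpla3, so Pnpla3 alone changed sign.

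With 2 pools per group a missed threshold does not show that a gene was equal in both groups, and the 95% confidence intervals give the sizes that these arrays leave possible. Over the 10 genes they spanned from -0.99, the lower bound for Thrsp, to 0.88, the upper bound for Srebf1. A 2-fold difference, which is 1 on the log2 scale, thus lay just outside the interval for Thrsp, and it lay inside those of the probe sets 1422973_a_at of Thrsp (lower bound -1.01) and 1427595_at of Acaca (-1.06). RMA, the method that made the values, compresses differences at low levels, which bears most on Pnpla3.

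**Figure D1:**
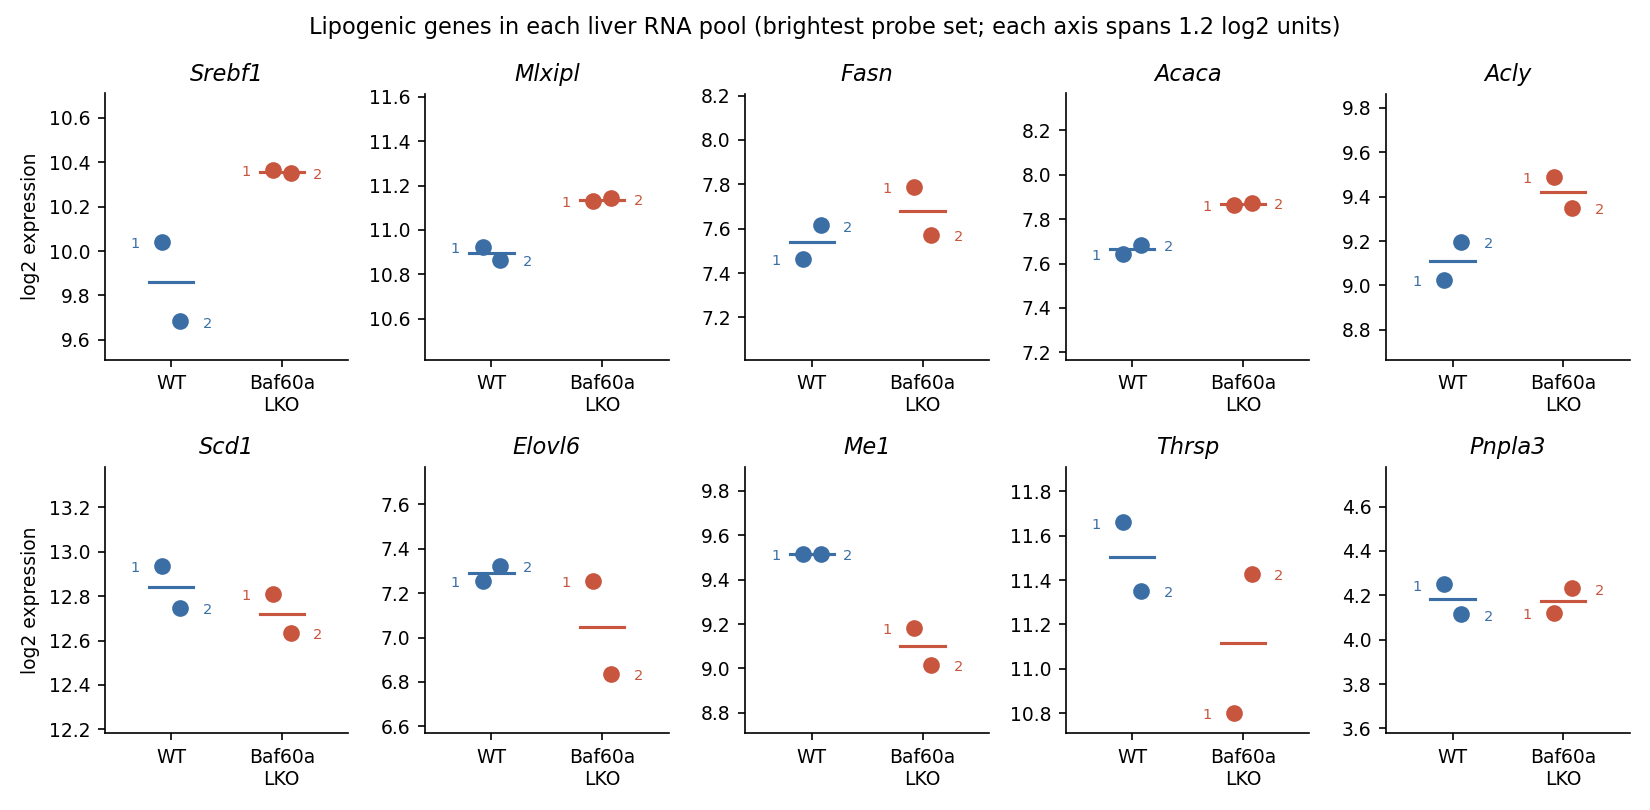
Log2 expression of the 10 lipogenic genes (1 panel each, brightest probe set) in the WT pools (blue) and the Baf60a LKO pools (red); each point is 1 array with its replicate number, and each line is a group mean. Both Baf60a LKO points lie above both WT points for Srebf1, Mlxipl, Acaca and Acly and below them for Me1.

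Of the transcription factor genes, Srebf1 read 10.04 and 9.68 in the WT pools, against 10.36 and 10.35 in the Baf60a LKO pools. Both Baf60a LKO pools were above both WT pools, and the WT pools differed by 0.36 from each other while the Baf60a LKO pools differed by 0.01. The difference was 0.50 ± 0.16 (standard error of the limma fit, 2 arrays per group; adjusted p = 0.407), a ratio of 1.41. It rested in part on WT replicate 2, without which it was 0.32, and it was 0.68 without WT replicate 1. Which of the SREBP-1a and SREBP-1c transcripts the probe set takes in is a point not stated in the sources used here. Mlxipl, the gene of ChREBP, read 10.92 and 10.86 in the WT pools, against 11.13 and 11.14 in the Baf60a LKO pools. These groups were close within themselves and did not overlap, with a difference of 0.24 ± 0.11 (limma, adjusted p = 0.537).

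Acly, whose enzyme splits citrate into acetyl-CoA in the cytosol, read 9.02 and 9.19 in the WT pools, against 9.49 and 9.35 in the Baf60a LKO pools on its brightest probe set. The difference was 0.31 ± 0.13 (limma, adjusted p = 0.503). Its other bright probe sets differed the same way, 1439459_x_at by 0.36 (0.21 without WT replicate 1) and 1425326_at by 0.22 (0.06 without Baf60a LKO replicate 1). Averaged over its probe sets, Acly was at 0.12. The 3 remaining ones, with values of 2.04 to 2.90, were near the 95th percentiles of the bacterial control probe sets, 2.63 to 2.86, and they differed by -0.20 to 0.12. One of them, 1446315_at, was slightly above that percentile in both WT pools and below it in both Baf60a LKO pools.

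Acaca, which encodes the carboxylase that makes malonyl-CoA, read 7.64 and 7.68 in the WT pools, against 7.86 and 7.87 in the Baf60a LKO pools. The difference of 0.20 ± 0.11 (limma, adjusted p = 0.572) was several times the gaps between replicates, which were 0.04 and 0.01. The second Acaca probe set went the other way, with 4.05 and 3.52 in WT and 3.51 and 3.09 in Baf60a LKO, a difference of -0.49 ± 0.23 at a much dimmer signal. With both probe sets averaged Acaca was at -0.14, and after quantile normalization the bright one was at 0.11. Fasn, the multi-domain synthase of palmitate, read 7.46 and 7.61 in the WT pools, against 7.79 and 7.57 in the Baf60a LKO pools. Its groups overlapped, and the difference of 0.14 ± 0.14 (limma, adjusted p = 0.743) was no larger than its error. It ran from 0.03 to 0.25 with 1 array left out and was 0.05 after quantile normalization.

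Me1, the cytosolic malic enzyme that yields NADPH for fatty acid synthesis, was the member that lay lower in both Baf60a LKO pools. It read 9.52 in both WT pools, against 9.18 and 9.02 in the Baf60a LKO pools. The difference was -0.42 ± 0.12 (limma, adjusted p = 0.368), and leaving out 1 array gave -0.50 to -0.33. The second Me1 probe set read 9.54 and 9.47 in WT and 9.28 and 8.87 in Baf60a LKO, with a difference of -0.43 ± 0.17. Baf60a LKO replicate 2 was the lowest on both, and without it the second probe set was at -0.23, its range with 1 array left out being -0.63 to -0.23.

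Scd1, whose product puts the first double bond into stearate and palmitate, read 12.94 and 12.75 in the WT pools, against 12.81 and 12.63 in the Baf60a LKO pools on its bright probe set. The groups overlapped, and the difference was -0.12 ± 0.14 (limma, adjusted p = 0.773). Its second probe set read 6.25 and 6.30 in WT and 6.53 and 6.61 in Baf60a LKO, a difference of 0.30 ± 0.12 of the opposite sign. Averaged, Scd1 was at 0.09, opposite in sign to its bright probe set. Elovl6, which extends palmitate to stearate, read 7.26 and 7.32 in the WT pools, against 7.26 and 6.84 in the Baf60a LKO pools. Its difference of -0.24 ± 0.17 (limma, adjusted p = 0.641) rested on Baf60a LKO replicate 2, without which it was -0.03, and it was -0.45 without Baf60a LKO replicate 1. Baf60a LKO replicate 2 was also the lowest on the Elovl6 probe sets 1417403_at (6.66 and 6.76 in WT, 6.57 and 6.12 in Baf60a LKO) and 1442656_at (4.69 and 3.97 in WT, 4.02 and 3.94 in Baf60a LKO). On 1417403_at the groups did not overlap, with a difference of -0.37. The difference of -0.35 on 1442656_at rested on WT replicate 1, without which it was 0.007.

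Thrsp, or Spot 14, a small protein that accompanies lipogenesis and responds to thyroid hormone, carbohydrate and insulin, had the widest range of the 10 genes over the 4 arrays, 0.86. It read 11.66 and 11.35 in the WT pools, against 10.80 and 11.43 in the Baf60a LKO pools. The groups overlapped, since the second Baf60a LKO pool lay between the WT pools and the first lay below all others. The difference of -0.39 ± 0.24 (limma, adjusted p = 0.601) shrank to -0.08 without Baf60a LKO replicate 1, while leaving out Baf60a LKO replicate 2 gave -0.71. Probe set 1422973_a_at showed the same order of pools, with 10.54 and 10.20 in WT and 9.64 and 10.26 in Baf60a LKO. The third one, at 4.63 to 5.06, differed by -0.06. Thrsp was lowest in Baf60a LKO replicate 1 and Elovl6 in Baf60a LKO replicate 2, so the spread within the group did not run the same way for these lipogenic genes.

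Pnpla3, the gene of the lipid droplet protein adiponutrin, a target of both SREBP-1c and ChREBP, was dim. It read 4.25 and 4.11 in the WT pools, against 4.12 and 4.23 in the Baf60a LKO pools, and the difference of -0.01 ± 0.12 (limma, adjusted p = 0.993) had no stable sign, with 0.03 to 0.04 under the 3 other normalizations.

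**Figure D2:**
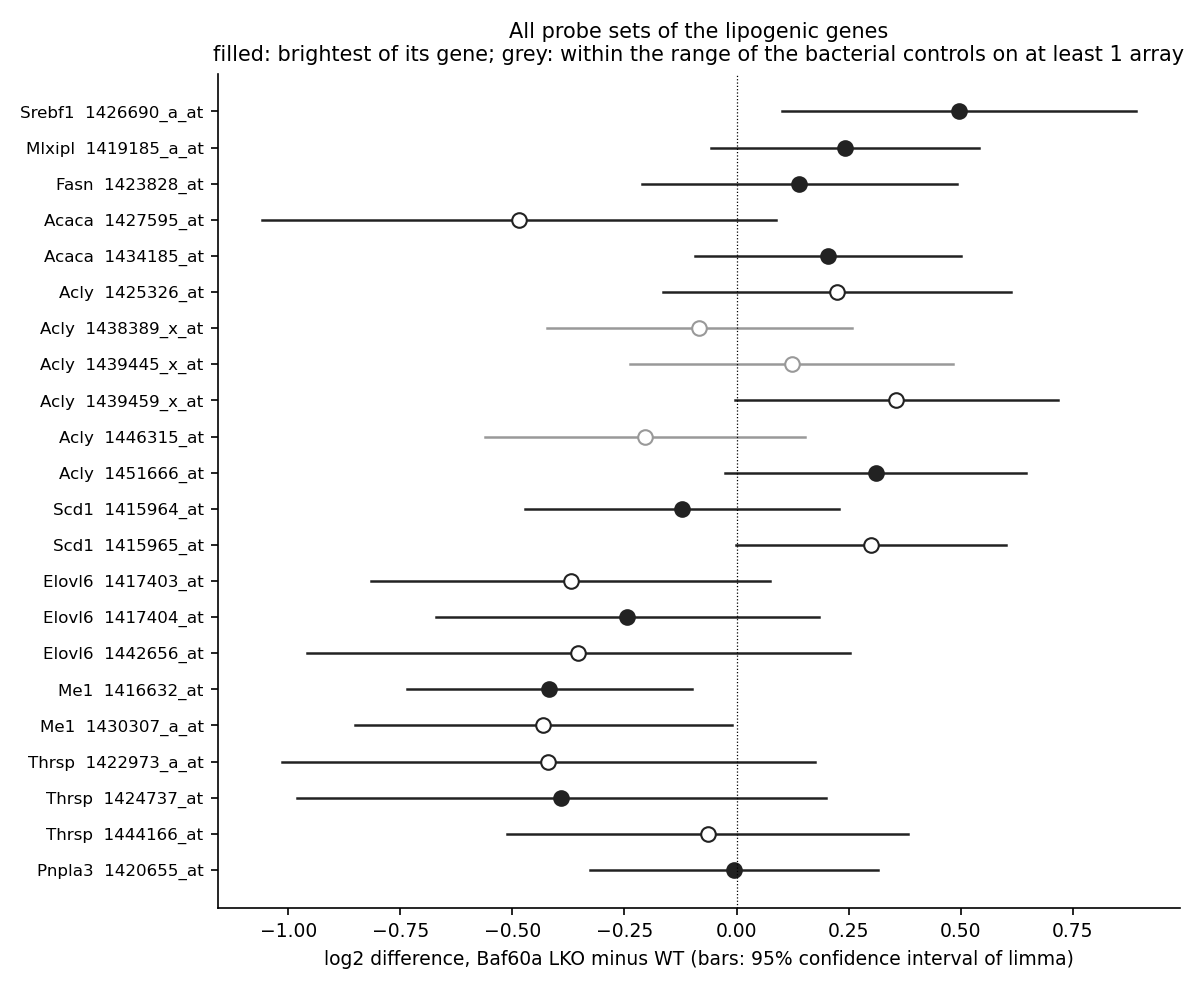
Log2 difference, Baf60a LKO minus WT, of all 22 probe sets of the lipogenic genes, with the 95% confidence interval of the limma fit over all probe sets; filled points are the brightest probe set of a gene, and grey marks those that were not above the 95th percentiles of the bacterial controls on every array. The interval leaves out 0 for Srebf1 and both Me1 probe sets, and the probe sets of Acaca and of Scd1 lie on opposite sides of 0.

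Over all probe sets, 0 of the 22 passed by limma (lowest adjusted p = 0.540, against 0.187% of all probe sets passing), and 3 had an unadjusted p under 0.05, against 8.17% of all. They were those of Srebf1 and Me1. In 7 of 22 both Baf60a LKO pools were higher (19.7% of all probe sets) and in 5 of 22 both were lower (19.4%).

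Genes that hold SREBP in the membrane or release it were set beside the members. These lists were chosen with earlier results of these data known. Of 9 measured genes of SREBP processing, 0 passed and the median was 0.12, which was 0.02 after quantile normalization and after cyclic loess and -0.0016 without WT replicate 1. Insig2, an endoplasmic reticulum protein that holds the SCAP-SREBP complex back and whose liver transcript falls with insulin, read 10.48 and 10.19 in the WT pools, against 9.19 and 9.54 in the Baf60a LKO pools. Both Baf60a LKO pools lay below both WT pools. The difference was -0.97 ± 0.18 (limma, adjusted p = 0.154, unadjusted p = 0.00194), and it ran from -1.14 to -0.79 with 1 array left out. A trended and robust limma fit placed Insig2 past the threshold at an adjusted p of 0.0325, while the other settings run did not. Insig1, the related protein whose gene SREBP itself activates, had a difference of 0.25 ± 0.24 (-0.09 without WT replicate 1, 0.59 without WT replicate 2). Rnf139, an endoplasmic reticulum ubiquitin ligase, differed by 0.31 ± 0.13 (0.21 without WT replicate 1, 0.19 with probe sets averaged). Mbtps2, the site-2 protease that frees SREBP, differed by 0.29 ± 0.16, and by 0.14 without Baf60a LKO replicate 2.

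Among 17 measured regulators upstream of Srebf1 and Mlxipl, 0 passed, 10 were above 0 and the median was 0.01. Usf2, a basic helix-loop-helix factor that binds E-boxes of lipogenic promoters, read 7.53 and 7.64 in the WT pools, against 8.28 and 8.11 in the Baf60a LKO pools. Its groups did not overlap, and the difference was 0.62 ± 0.13 (limma, adjusted p = 0.204), or 0.35 with its probe sets averaged. Bhlhe40, a transcriptional repressor, had a difference of 0.42 ± 0.21 (0.14 without WT replicate 1, 0.70 without WT replicate 2). Rxra, the partner of the LXR receptors that drive Srebf1, differed by -0.29 ± 0.12 and the insulin receptor substrate gene Irs2 by -0.27 ± 0.21. Irs2 was at 0.02 without WT replicate 2 and at -0.57 without WT replicate 1.

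The list of ChREBP targets took in genes of glycolysis and fructose use and others, among them Klf10, Fgf21, Txnip, Kmt5a and Arntl. Of 10 measured genes 7 were above 0, with a median of 0.17, and 0 passed. Klf10, a zinc finger repressor, differed by 0.82 ± 0.34 and Fgf21, a hormone of fasting and of sugar feeding, by 0.67 ± 0.34. Both were lowest in WT replicate 1, at 5.93 and 6.18, and without that array Klf10 was at 0.30 and Fgf21 at 0.21, while without WT replicate 2 they were at 1.34 and 1.14. Fgf21 was at 0.42 without Baf60a LKO replicate 1. Gpd1, which makes glycerol 3-phosphate, differed by 0.34 ± 0.14, by 0.10 with probe sets averaged and by 0.21 without Baf60a LKO replicate 1. The glucose transporter gene Slc2a2 differed by 0.26 ± 0.13, and by 0.15 without WT replicate 1.

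In the supply of cytosolic acetyl-CoA and NADPH, 0 of 11 measured genes passed and the median was 0.00. Rpia, of the pentose phosphate pathway, had a difference of 0.47 ± 0.21 (0.17 without WT replicate 1, 0.76 without WT replicate 2). Cs, mitochondrial citrate synthase, differed by -0.35 ± 0.12 (-0.22 with probe sets averaged) and Tkt, transketolase, by -0.23 ± 0.12. Slc25a1, the citrate carrier, differed by -0.10 ± 0.13, and its sign turned without WT replicate 2. Of 11 genes that act on acetyl-CoA carboxylase, 0 passed and 8 were above 0, with a median of 0.04. Mid1ip1, the relative of Thrsp whose product helps the carboxylase to polymerise, read 7.43 and 8.02 in the WT pools, against 8.59 and 8.12 in the Baf60a LKO pools. Its groups did not overlap, and the difference of 0.63 ± 0.25 (limma, adjusted p = 0.490) (0.33 without WT replicate 1, 0.40 without Baf60a LKO replicate 1) had the sign opposite to that of Thrsp; the contrast between the pair was not tested. Acacb, the carboxylase whose malonyl-CoA restrains fatty acid oxidation, differed by -0.51 ± 0.21, and by -0.80 without WT replicate 1, -0.22 without WT replicate 2 and -0.31 with probe sets averaged. Mlycd, which removes malonyl-CoA, differed by 0.21 ± 0.14 (0.09 without WT replicate 1, 0.33 without WT replicate 2). Trib3, a pseudokinase, differed by -0.20 ± 0.13 (-0.10 without Baf60a LKO replicate 2, -0.31 after quantile normalization).

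Elongation and desaturation enzymes beyond Elovl6 and Scd1 gave 0 of 17 past the threshold and a median of 0.06. Elovl3, an elongase of saturated very long chains, read 9.84 and 9.65 in the WT pools, against 8.34 and 8.86 in the Baf60a LKO pools. Both Baf60a LKO pools lay clearly below both WT pools, with a difference of -1.14 ± 0.20 (limma, adjusted p = 0.142, unadjusted p = 0.00162). It ran from -1.40 to -0.88 with 1 array left out. The trended and robust limma fit gave an adjusted p of 0.0331, while the other settings run did not place Elovl3 past the threshold. Fads1, the delta-5 desaturase, differed by 0.44 ± 0.17 (0.28 without WT replicate 1, 0.71 with probe sets averaged). Acsl3, an acyl-CoA synthetase, differed by 0.40 ± 0.30 (-0.05 without WT replicate 1, 0.85 without WT replicate 2) and Hsd17b12, the ketoreductase of elongation, by -0.39 ± 0.12.

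In glycerolipid assembly and lipolysis, the step that receives the new fatty acids, 1 of 16 genes passed and it fell, with a list median of 0.01. Mogat1, a monoacylglycerol acyltransferase, read 6.59 and 6.77 in the WT pools, against 4.88 and 4.64 in the Baf60a LKO pools. It fell by 1.92 on the log2 scale (standard error 0.14, limma adjusted p = 0.0153), with adjusted p = 0.0753 with a replicate block and 0.114 to 0.186 with 1 array left out, where the difference stayed at -2.04 to -1.80. Pnpla7, a lysophospholipase, differed by 0.56 ± 0.19, and by 0.37 without WT replicate 2. G0s2, an inhibitor of adipose triglyceride lipase, differed by -0.37 ± 0.14 and Gpat4, a glycerol 3-phosphate acyltransferase, by -0.29 ± 0.12 (-0.18 with probe sets averaged).

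**Figure D3:**
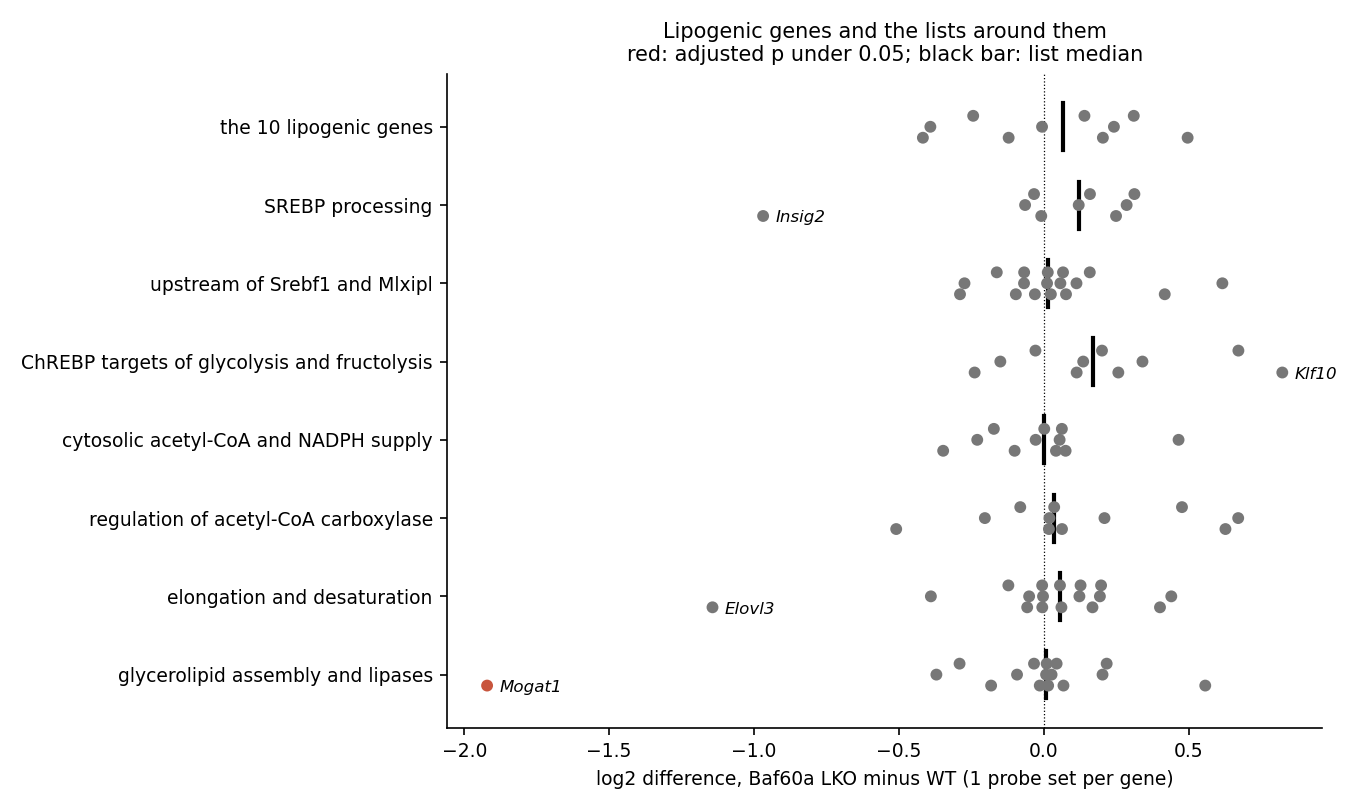
Log2 difference, Baf60a LKO minus WT, of the 10 lipogenic genes and of 7 lists of genes around them (1 point per gene, 1 probe set each; black bars are list medians, which lie between 0.00 and 0.17; red marks an adjusted p under 0.05). Mogat1 is the 1 gene that passed, and Insig2 and Elovl3 are the next furthest below 0.

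By the smallest root mean square distance between centred values over the 4 arrays, the genes with the pattern most like that of Thrsp were Slc8a2 (0.03), Map6d1 (0.04), Krt14 (0.04), Allc (0.04) and Lrrn2 (0.06). All 5 were dim, with values of 2.64 to 4.95. The nearest other member was Pnpla3, at 0.27, in place 3420 by distance. Pnpla3 varied little, with a range of 0.14 over the 4 arrays against 0.86 for Thrsp, so its place is no sign of a shared pattern.

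**Figure D4:**
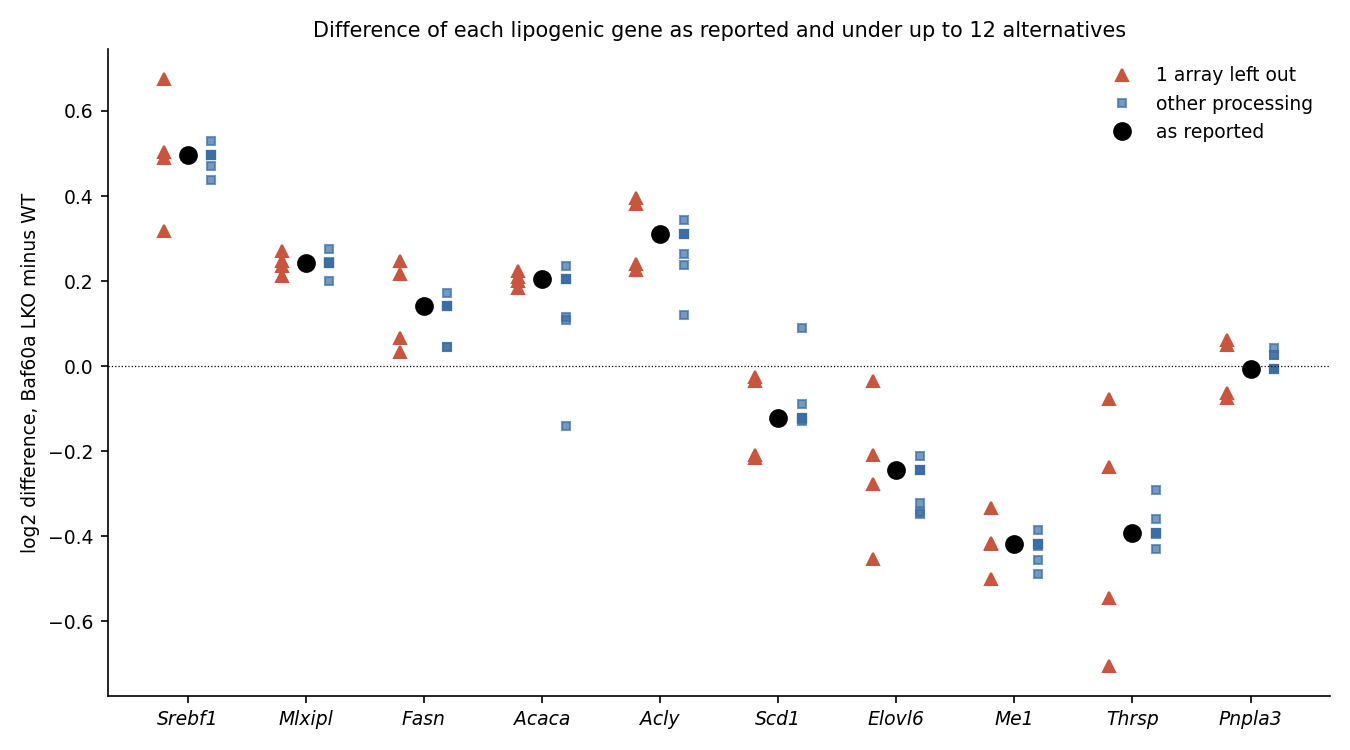
Log2 difference, Baf60a LKO minus WT, of each lipogenic gene as reported (black circles), with 1 of the 4 arrays left out (red triangles) and under the other processing alternatives (blue squares). Srebf1, Mlxipl, Acly and Fasn stay above 0 and Me1, Thrsp and Elovl6 below it in every setting run, Thrsp ranging from -0.71 to -0.08, while Acaca, Scd1 and Pnpla3 cross 0 in at least 1.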

How the data were processed

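Liver RNA pools of WT and Baf60a LKO mice were hybridised to 4 arrays, and samples were grouped by genotype as in their titles. The deposited values are log2 expression, with a single value for each probe set on an array. The submitters' processing notes list RMA (background correction, quantile normalization, probe summary), affy and limma, with no versions, and the columns do not share the same quartiles. The number of arrays limits the precision, and p-values measure the spread between pools, which the labels call independent. The table had 45101 probe sets, 64 of them controls that were set aside. Of the 45037 tested, the platform annotation gave 1 symbol to 34945, several to 932 (none a member) and none to 9160, and 34741 probe sets were matched to a RefSeq gene, and named by it, through the Entrez number. Groups were compared over all genes and over all probe sets with limma 3.58.1 in R 4.3.3 (lmFit, eBayes), 2-sided, with no filter on level. The fit over genes had 2 residual and 3.54 prior degrees of freedom. The script was tested on simulated data. Named list genes are those past the threshold and the 4 with the largest differences and a group mean over 6. Members and lists were chosen with earlier results of these data known. Alternatives covered normalization, dim features, probe set choice, eBayes, a replicate block and each array left out. Figures were drawn with matplotlib 3.10.9.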

Additional observations from a re-analysis of the deposited data

How the results depend on the processing

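No lipogenic gene passed under any of the 12 alternatives, and of 119 gene values under them 112 kept their sign and their side of the threshold. The 7 that turned sign were those of Pnpla3 (0.025 after quantile normalization, 0.043 after cyclic loess, 0.027 with array medians subtracted, and -0.074 to 0.062 with 1 array left out) and, with probe sets averaged, Acaca (-0.14) and Scd1 (0.089). The Pnpla3 probe set gave the same values. Dim probe sets also turned sign with 1 array left out: 1439445_x_at of Acly ran from -0.018 to 0.26, 1438389_x_at of Acly from -0.18 to 0.016, 1442656_at of Elovl6 from -0.71 to 0.0069 and 1444166_at of Thrsp from -0.28 to 0.15. Among the 28 named genes of the other lists, Acsl3 turned to -0.27 without _x_at and _s_at probe sets, and with 1 array left out Acsl3 ran from -0.052 to 0.85, Insig1 from -0.095 to 0.59, Irs2 from -0.57 to 0.020 and Slc25a1 from -0.21 to 0.012. The median of the members was 0.14 over the 9 in the brighter 50% of genes, which leaves out Pnpla3. The median over all genes in that brighter 50% was 0.075. The list medians nearest 0 (upstream regulators, acetyl-CoA and NADPH supply, carboxylase regulation, elongation and glycerolipid assembly) each fell below 0 under at least 1 alternative, to -0.074 at the lowest, for the upstream regulators after cyclic loess. Genes passing numbered 88, and 142 after cyclic loess, 154 with array medians subtracted, 216 with a trended and robust eBayes, 19 with a replicate block and 0 to 17 with 1 array left out. Probe sets passing numbered 84, and 139 after quantile normalization, 162 after cyclic loess, 146 with array medians subtracted, 173 with a trended and robust eBayes, 4 with the replicate block and 0 with each array left out in turn. The same-numbered pools share only a number: the differences between replicates correlated at 0.14 between the groups over 18193 genes. Fewer arrays or a block leave fewer degrees of freedom. The cause of the other shifts was not tested. Signal over background limits what Pnpla3 and the dim probe sets can show.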
